A study of Homo sapiens with 6 samples.

Results

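The 35 genes described here encode the enzymes that make cholesterol and fatty acids and the regulators that switch those enzymes on or off. They also encode proteins that move sterol through and out of the cell. The genes were taken as a fixed list of symbols. The rule held no expression value, but the list was chosen with earlier results of these data known. Each symbol was matched to an Ensembl identifier in a count table of 62438 identifiers, of which 17320 had enough counts to be tested. All 35 genes were among those tested. They fall into 17 genes of sterol synthesis, 5 of SREBP control, 5 of sterol transport and 8 of fatty acid synthesis. RNA-seq libraries were made from human cells labelled MDA-MB-453, a breast cancer line. In 3 libraries the cells had received an siRNA that targets N6AMT1 (si-N6AMT1) and in the other 3 a scrambled siRNA (si-CN), each at 10 nM for 48 h with a lipid transfection reagent. The study proposes N6AMT1 as a methyltransferase for N6-methyladenine in DNA, and the comparison asks which transcripts differ once its mRNA is reduced.

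Cholesterol is built from acetyl-CoA through mevalonate and squalene to lanosterol, which is then trimmed and rearranged in the endoplasmic reticulum. Fatty acids are built from the same acetyl-CoA by carboxylation, repeated condensation and desaturation. The genes of both routes are targets of the SREBP transcription factors, which lie in the endoplasmic reticulum bound to SCAP. When sterol is plentiful, INSIG proteins hold SCAP there, and when sterol falls, SCAP carries SREBP to the Golgi, where the proteases encoded by MBTPS1 and MBTPS2 cut it and release its active part to the nucleus. Breast cancers often make much of their own fatty acid.

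N6AMT1 had 61, 72 and 60 estimated counts in the si-N6AMT1 libraries and 136, 135 and 141 in the si-CN libraries, which gave a log2 fold change of -1.10 (SE 0.119, FDR = 3.6e-07). FDR is the Benjamini-Hochberg adjusted p of edgeR's quasi-likelihood test over all 17320 genes, and fold changes compare si-N6AMT1 with si-CN throughout. Library totals ran from 19739247 to 21289740 counts. The labels describe triplicate cells without saying that these were separate cultures, so the p-values measure the spread between these libraries, which may be technical. The cell type label was checked against marker genes, in TPM, a unit scaled to library size and transcript length. Values in CPM are counts scaled to library size alone. The 8 luminal markers were split. KRT8 was at 743 TPM or more, KRT18 at 714 TPM or more and XBP1 at 96.2 TPM or more in every library, but FOXA1 was at most 5.70, GATA3 at most 2.63, AGR2 at most 1.21 and KRT19 at most 1.09 TPM, and SPDEF was too low to be tested. The basal keratin KRT5 was at 757 TPM or more and the mesenchymal marker VIM at 630 TPM or more in every library. The libraries are therefore called by their label alone. The summed levels of the 4 basal or mesenchymal markers were 1866 to 1883 TPM in si-CN and 2020 to 2041 TPM in si-N6AMT1, with 3 of the 4 called higher, and those of the 8 luminal markers were 1567 to 1593 TPM and 1677 to 1683 TPM, with 2 of the 7 tested called higher. The summed levels of 5 markers of fibroblasts, leukocytes and adipocytes were 18.1 to 19.6 TPM in si-CN and 18.0 to 19.8 TPM in si-N6AMT1. Neither of the 2 that could be tested was called. Most of this sum was the collagen gene COL1A1, at 16.5 TPM or more in every library, and ADIPOQ was at or near 0. The part of these markers in the results below was not tested.

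At an FDR under 0.05, 12 of the 35 genes were lower (34.3%), 1 was higher and 22 did not pass. Over all genes tested, 11.5% were lower and 9.78% were higher. In 19 of the 35 genes (54.3%) every si-N6AMT1 library lay below every si-CN library, against 18.0% of all genes tested, and in 2 genes every si-N6AMT1 library lay above, against 16.8%. The median log2 fold change was -0.09 over the 35 genes and 0.0039 over all genes tested, and 31 of the 35 estimates were below 0. Highly expressed genes passed more often. Among the 4783 genes with a mean of at least 50 CPM, 24.7% were lower and 17.7% were higher, and 10 of the 22 listed genes at that level were lower. The fold changes of the genes that passed ran from -0.38 for ACACA to 0.10 for SREBF1. In bulk RNA, fewer cells of a type and less RNA per cell cannot be told apart.

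**Figure D1:**
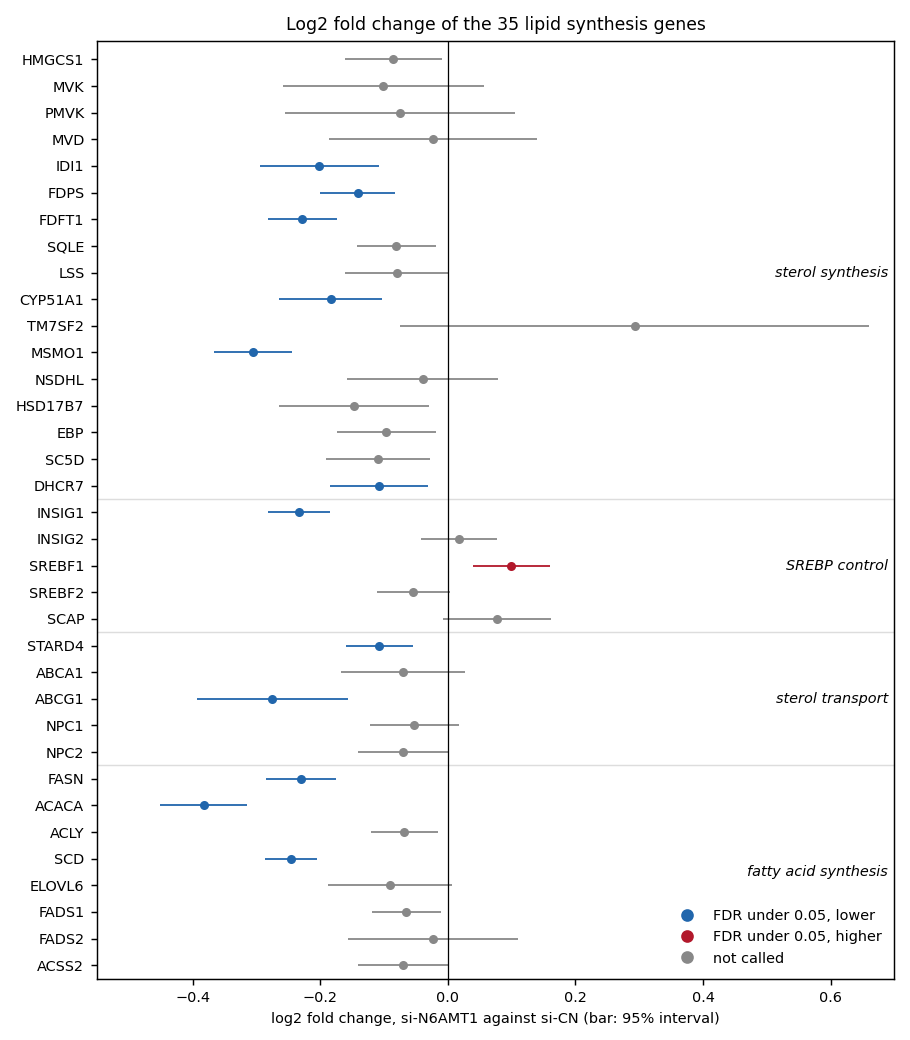
Log2 fold change of each of the 35 genes, si-N6AMT1 against si-CN, grouped by role, with horizontal bars for the 95% interval of the quasi-likelihood fit. The 12 genes in blue lie below 0 at an FDR under 0.05, SREBF1 in red lies above it, and the 22 grey genes did not pass.

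Sterol synthesis had 6 genes lower, none higher and 11 not passing, with a median log2 fold change of -0.10. The lower genes sit at the end of the mevalonate stage, at the entry into squalene, in the removal of methyl groups from lanosterol and at the final reduction to cholesterol. The mevalonate stage begins with HMGCS1, the synthase that condenses acetyl-CoA units, followed by the kinases MVK and PMVK and the decarboxylase MVD. None of these 4 passed. HMGCS1 had 68.7, 73.5 and 66.5 CPM in si-N6AMT1 and 75.2, 73.4 and 72.9 CPM in si-CN, groups that overlapped (log2 fold change -0.09, 95% interval -0.16 to -0.01, FDR = 0.105). It passed without si-N6AMT1 replicate 2 (-0.13, FDR = 0.0214). The estimates for MVK, PMVK and MVD lay between -0.10 and -0.02, and their intervals reached from -0.26 to 0.14.

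IDI1, the isomerase that interconverts the 5-carbon isoprenoid units, had 40.2, 40.9 and 43.1 CPM in si-N6AMT1 and 50.6, 46.0 and 46.2 CPM in si-CN. The groups did not overlap, and IDI1 fell by 0.20 on the log2 scale (SE 0.0448, FDR = 0.00201). FDPS, which joins those units into farnesyl diphosphate, had 104.7, 109.8 and 108.8 CPM against 120.8, 119.2 and 116.6 CPM, a mean of 108 ± 2.70 against 119 ± 2.13 (SD, n = 3 in each group here and below). It was lower in every si-N6AMT1 library, by 0.14 on the log2 scale (SE 0.0284, FDR = 0.000775). FDFT1, the squalene synthase that commits farnesyl diphosphate to sterol, had 130.4, 135.7 and 133.2 CPM in si-N6AMT1 and 156.9, 153.9 and 157.0 CPM in si-CN. The gap between its groups was several times the spread within them, with a log2 fold change of -0.23 (SE 0.0259, FDR = 7.0e-07). SQLE, the squalene epoxidase that makes the first oxygenated intermediate, had 92.3, 95.3 and 95.6 CPM against 102.1, 97.5 and 99.9 CPM. Its libraries did not overlap either, but the difference of -0.08 missed the threshold (95% interval -0.14 to -0.02, FDR = 0.0564), which it passed without si-CN replicate 2 (FDR = 0.0470).

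Past squalene, the largest fall was that of MSMO1, the methylsterol monooxygenase that oxidises the methyl groups at carbon 4 of the sterol ring. MSMO1 (GRCh37, chr4:166248819-166264316, plus strand) had 80.3, 78.2 and 78.5 CPM in the si-N6AMT1 libraries and 97.1, 97.9 and 97.9 CPM in the si-CN libraries. Its means were 79.0 ± 1.14 and 97.6 ± 0.426 CPM, so that it fell by 19.1% (log2 fold change -0.31, SE 0.0293, FDR = 5.9e-08). CYP51A1, the lanosterol demethylase that acts earlier in this stage, was also lower in every library, with 56.9, 52.3 and 54.8 CPM against 63.6, 60.03 and 62.6 CPM (log2 fold change -0.18, SE 0.0386, FDR = 0.00118). DHCR7, the reductase that makes cholesterol from its immediate precursor, had 52.6, 53.0 and 52.1 CPM against 58.2, 57.4 and 54.6 CPM. It passed narrowly (log2 fold change -0.11, FDR = 0.0405). The call was lost with DESeq2 (FDR = 0.228), and without any 1 of the si-N6AMT1 libraries, si-CN replicate 1 or si-CN replicate 2 (FDR from 0.0755 to 0.148).

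The other enzymes of the late stage did not pass. LSS, the cyclase that forms lanosterol, HSD17B7 and EBP, which reduce and isomerise the ring, and SC5D, a desaturase, were each lower in every si-N6AMT1 library. Their log2 fold changes lay between -0.15 and -0.08, and their FDR between 0.0513 and 0.168. EBP passed with the GC correction without a block (FDR = 0.0276) and with one (FDR = 0.0367). LSS passed with the GC correction without a block (FDR = 0.0392) but not with one (FDR = 0.0502). HSD17B7 passed without si-N6AMT1 replicate 2 (FDR = 0.0308) and SC5D without si-CN replicate 2 (FDR = 0.0421). HSD17B7 shares sequence with the pseudogene HSD17B7P2, to which 49 to 79 counts per library were assigned, so its estimate carries that uncertainty. NSDHL, a sterol dehydrogenase, had overlapping libraries (95% interval -0.16 to 0.08). TM7SF2, a sterol reductase, was the lowest of all 35 genes, with 2.78, 2.35 and 2.29 CPM in si-N6AMT1 against 2.24, 1.78 and 2.03 CPM in si-CN. Every si-N6AMT1 library was above every si-CN library for TM7SF2, but the difference of 0.29 did not pass (95% interval -0.08 to 0.66, FDR = 0.277).

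Of the 5 genes of SREBP control, INSIG1 was lower and SREBF1 was higher, and the remaining 3 did not pass. INSIG1 (GRCh37, chr7:155089486-155101945, plus strand), the protein that holds SCAP in the endoplasmic reticulum and is itself a known SREBP target, had 215.5, 222.5 and 223.1 CPM in si-N6AMT1 and 262.7, 256.6 and 257.9 CPM in si-CN. The highest si-N6AMT1 library was well under the lowest si-CN library, and the log2 fold change was -0.23 (SE 0.0235, FDR = 1.3e-07). Its relative INSIG2, which does the same work but responds differently to sterol, had 139.1, 129.9 and 135.9 CPM against 132.1, 131.3 and 136.3 CPM. These overlapped, with a difference of 0.02 (95% interval -0.04 to 0.08).

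SREBF1, which encodes the SREBP form linked mainly to fatty acid synthesis, had 103.2, 98.3 and 101.9 CPM in si-N6AMT1 and 94.2, 94.1 and 94.9 CPM in si-CN. It was higher in all 3 knockdown libraries, by 0.10 on the log2 scale (SE 0.0291, FDR = 0.0166). The call was lost with DESeq2 (FDR = 0.137). It was lost with the GC correction without a block (0.04 on the log2 scale, FDR = 0.316) and with one (FDR = 0.374). It was also lost without si-N6AMT1 replicate 1 (FDR = 0.0647) or 3 (FDR = 0.0620) and without si-CN replicate 2 (FDR = 0.0524). SREBF2, which encodes the form linked mainly to cholesterol synthesis, had 141.1, 136.3 and 138.3 CPM against 139.0, 147.2 and 145.4 CPM, which overlapped. Its estimate was -0.05 (95% interval -0.11 to 0.00, FDR = 0.183). SREBF2 passed with the GC correction without a block (-0.09, FDR = 0.0164) and with one (-0.09, FDR = 0.0398). SCAP had 76.4, 69.2 and 72.2 CPM against 66.2, 73.0 and 67.3 CPM, which overlapped as well (FDR = 0.207).

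In fatty acid synthesis, 3 of 8 genes were lower, none was higher and all 8 estimates were below 0, with a median of -0.08. ACACA (GRCh37, chr17:35441927-35766927, minus strand), the acetyl-CoA carboxylase that makes malonyl-CoA in the first committed step, had 87.6, 82.0 and 84.1 CPM in si-N6AMT1 and 109.1, 114.6 and 107.3 CPM in si-CN. Its means were 84.6 ± 2.83 and 110 ± 3.84 CPM. ACACA fell by 23.3%, the most of the 35 genes (log2 fold change -0.38, SE 0.0327, FDR = 9.8e-09). FASN, the synthase that extends malonyl-CoA to palmitate, had 232.9, 219.4 and 226.7 CPM against 257.0, 270.4 and 269.0 CPM. FASN was lower in every si-N6AMT1 library (log2 fold change -0.23, SE 0.0263, FDR = 8.0e-07).

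SCD (GRCh37, chr10:102106990-102124583, plus strand), the desaturase that makes monounsaturated fatty acids, had the highest normalized counts of the list, with 669.7, 656.7 and 665.8 CPM in si-N6AMT1 and 782.5, 786.2 and 794.1 CPM in si-CN. The libraries of each group lay close together and far from the other group. SCD fell by 15.7% (log2 fold change -0.25, SE 0.0199, FDR = 4.1e-09). ACLY, which supplies cytosolic acetyl-CoA from citrate, had 206.6, 207.4 and 196.7 CPM against 211.8, 215.4 and 213.0 CPM. All its si-N6AMT1 libraries were lower, but the difference of -0.07 missed the threshold (FDR = 0.0561). ACLY passed with the GC correction without a block (FDR = 0.0147) and with one (FDR = 0.0364). The desaturase FADS1 was also lower in every library without passing (-0.07, FDR = 0.0815). The elongase ELOVL6, the desaturase FADS2 and ACSS2, which activates acetate, had overlapping libraries, with estimates of -0.09, -0.02 and -0.07 and FDR from 0.158 to 0.848.

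**Figure D2:**
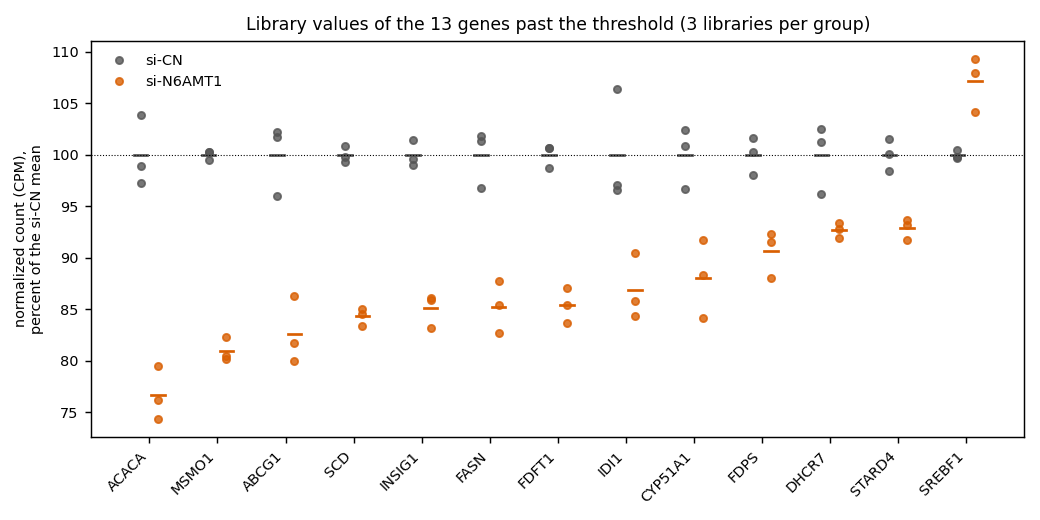
Normalized count of each library for the 13 genes with an FDR under 0.05, as a percent of the si-CN mean of that gene, with 3 grey points for si-CN, 3 orange points for si-N6AMT1 and short lines for the means. In each gene the groups do not overlap. ACACA fell by 23.3%, and SREBF1 is the only gene above its si-CN mean, by 7.12%.

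In sterol transport, 2 of 5 genes were lower and none was higher. ABCG1, which exports cholesterol to lipoprotein and is a known target of the oxysterol receptors, had 19.6, 20.7 and 19.2 CPM in si-N6AMT1 and 24.5, 23.0 and 24.4 CPM in si-CN. It fell by 0.28 on the log2 scale (SE 0.0572, FDR = 0.00109). STARD4, which carries sterol between membranes and is an SREBP target, had 140.9, 138.7 and 141.7 CPM against 151.3, 148.8 and 153.6 CPM. The difference was small and larger than the spread of the libraries (log2 fold change -0.11, SE 0.0254, FDR = 0.00340). The STARD4 call was lost with the replicate block and GC correction together (-0.07, FDR = 0.0773). ABCA1, the other main exporter of cholesterol, had 44.4, 40.5 and 43.8 CPM against 43.9, 43.1 and 48.0 CPM, which overlapped (95% interval -0.17 to 0.03, FDR = 0.332). NPC1 and NPC2, which move cholesterol out of lysosomes, overlapped too, with estimates of -0.05 and -0.07, and NPC2 passed without si-N6AMT1 replicate 2 (-0.11, FDR = 0.0275).

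The summed normalized counts give the change in transcripts of each role together, weighted by the most abundant genes. Sterol synthesis summed to 871 ± 10.8 CPM in si-N6AMT1 and 966 ± 11.1 CPM in si-CN, a difference of -9.84%. Fatty acid synthesis summed to 1472 ± 13.8 against 1684 ± 9.56 CPM, a difference of -12.6%, and much of this sum is SCD. The sums for SREBP control, 668 ± 10.1 against 699 ± 4.49 CPM, and for sterol transport, 438 ± 7.35 against 466 ± 5.42 CPM, differed by -4.54% and -6.00%. Within SREBP control, INSIG1 had a mean of 220 CPM in si-N6AMT1 and 259 CPM in si-CN. In that role 3 of the 5 estimates were above 0 (median log2 fold change 0.02), so its sum does not describe the genes one by one. Over all 35 genes the sum was 3448 ± 5.64 against 3815 ± 2.50 CPM, a difference of -9.62%.

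**Figure D3:**
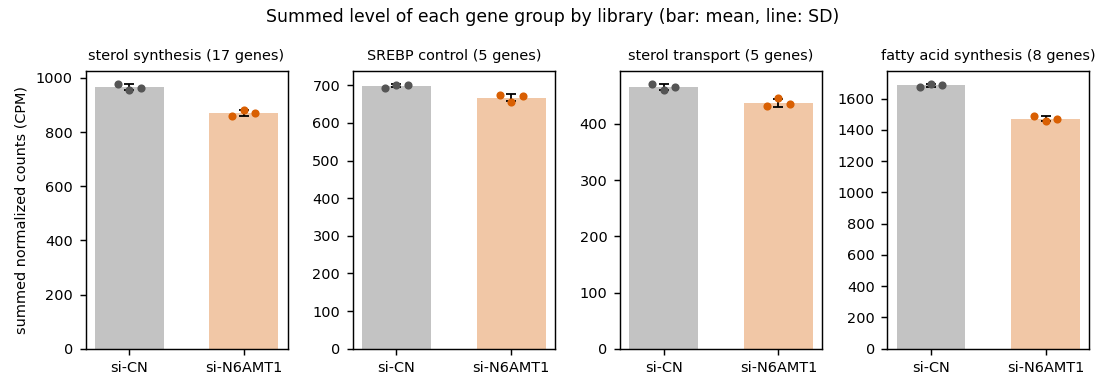
Summed normalized counts (CPM) of each role in every library, with points for libraries, bars for the mean of 3 libraries, lines for the SD and axes from 0. The si-N6AMT1 libraries lie below all si-CN libraries in each of the 4 roles, and the gap is largest in fatty acid synthesis, -12.6%. In SREBP control 3 of the 5 gene estimates were above 0.

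Levels were compared between genes as TPM, which divides each count by transcript length. In si-CN the highest was NPC2, at 447 ± 16.1 TPM, followed by SCD at 334 ± 6.16, INSIG1 at 198 ± 0.655, FDPS at 187 ± 1.98 and FDFT1 at 170 ± 2.13 TPM. With these lengths the 5 were separated from each other by more than their spread. At the other end were MVK at 11.3 ± 0.278, ABCA1 at 9.61 ± 0.621 and TM7SF2 at 2.84 ± 0.300 TPM. Neighbours in the middle of the order lay closer: INSIG2 at 83.2 ± 2.27 and FADS1 at 82.4 ± 0.987 TPM, and LSS at 22.6 ± 0.177 and PMVK at 22.5 ± 1.57 TPM, did not differ beyond their spread. ACACA, with the largest fall, was in the lower part of the order at 24.5 ± 0.964 TPM, and SCD was near its top. The length used for each gene is an assumption. Taking the longest transcript of every gene moved 32 of the 35 TPM values by more than their SD. TPM is scaled to a sum over all genes, so part of these moves was a change of scale that the genes shared. With the longest transcripts SCD, at 424 TPM, stood above NPC2, at 325 TPM. FDFT1, at 179 TPM, stood above FDPS, at 166 TPM, with EBP at 165 TPM close to FDPS.

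**Figure D4:**
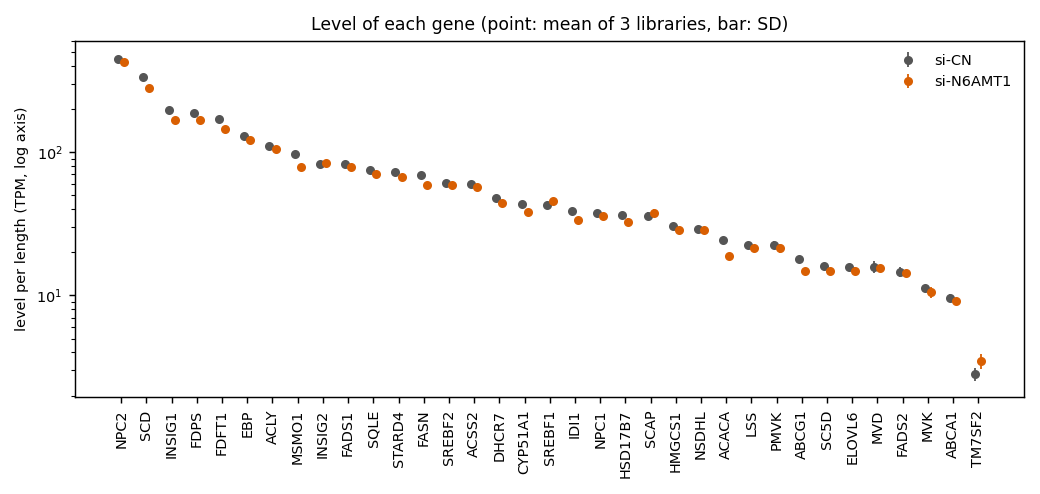
Level of each of the 35 genes per transcript length (TPM, log axis), ordered by the si-CN mean, with points for the mean of 3 libraries and bars for the SD. With the reference transcript lengths used, levels span from NPC2 at 447 TPM to TM7SF2 at 2.84 TPM, and the 12 genes that were lower run from SCD at 334 TPM to ABCG1 at 17.9 TPM.

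A further 47 genes of the same pathways, outside the list, were read from the same fit. Of these, 10 were lower (21.3%) and 7 were higher (14.9%), with a median log2 fold change of -0.02, so that the direction was mixed. Over all genes tested, 11.5% were lower and 9.78% were higher. Among genes with a mean of at least 10 CPM the shares were 18.4% and 14.4%, near those of the 47 genes. The 47 genes were not held to that level, and some lay below it. The largest difference was in MBTPS2, the Golgi protease that makes the second cut of SREBP. MBTPS2 (GRCh37, chrX:21857735-21903541, plus strand) had 21.4, 22.0 and 21.5 CPM in si-N6AMT1 and 37.2, 36.1 and 38.8 CPM in si-CN, a mean of 21.6 ± 0.330 against 37.4 ± 1.36 CPM. MBTPS2 fell by 42.2%, more than any gene of the list (log2 fold change -0.79, SE 0.0492, FDR = 5.8e-11). Among the 9 genes of SREBP processing and sterol sensing, 3 were lower (33.3%) and none was higher. Of the 22 genes of fatty acid elongation, desaturation, activation and use, 5 were lower and 5 were higher (22.7% each). Those with the smallest FDR were HSD17B12 (-0.21, FDR = 2.1e-06) and ELOVL7 (-0.37, FDR = 3.6e-06), which act in elongation and were lower, and the elongase ELOVL1 (0.29, FDR = 1.7e-07) and the desaturase SCD5 (0.21, FDR = 0.000361), which were higher. NR1H2, an oxysterol receptor of which ABCG1 and SREBF1 are known targets, was higher as well, at 44.3 ± 1.15 against 35.6 ± 1.503 CPM (log2 fold change 0.31, FDR = 1.0e-05). NR1H3, another oxysterol receptor, was also higher, at 9.67 ± 0.504 against 7.64 ± 0.466 CPM (log2 fold change 0.34, FDR = 0.00844). Of the targets named, ABCG1 was lower (-0.28) and SREBF1 was higher, a call that held in 7 of 14 alternatives. ABCA1, the other main exporter of cholesterol, did not pass (-0.07, FDR = 0.332). A link between the receptors and these genes was not tested.

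Promoter sequence was read for the genes in RefSeq's windows of 300 bases on GRCh38.p14, from 250 before to 50 after the start, which covered 31 of the 35 genes. FDFT1, SQLE, ABCG1 and FASN have no window here. The upstream 250 bases are shown for 3 genes. MSMO1 has the largest fall in sterol synthesis, INSIG1 carries the palindromic E-box form of the SREBP motif, TCACGTGA, and SREBF2 carries the sterol regulatory element core, TCACNCCAC. Capitals mark those motifs and CCAAT, the motif of NF-Y, a factor known to act beside SREBP, on either strand. The windows are MSMO1 at chr4:165327419-165327668, INSIG1 at chr7:155297628-155297877 and SREBF2 at chr22:41832855-41833104, all on the plus strand.
MSMO1: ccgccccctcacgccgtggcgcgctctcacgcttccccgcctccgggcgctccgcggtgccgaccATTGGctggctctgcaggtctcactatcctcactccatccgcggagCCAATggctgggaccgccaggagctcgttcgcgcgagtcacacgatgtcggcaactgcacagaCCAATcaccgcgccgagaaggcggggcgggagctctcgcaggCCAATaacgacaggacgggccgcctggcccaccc
INSIG1: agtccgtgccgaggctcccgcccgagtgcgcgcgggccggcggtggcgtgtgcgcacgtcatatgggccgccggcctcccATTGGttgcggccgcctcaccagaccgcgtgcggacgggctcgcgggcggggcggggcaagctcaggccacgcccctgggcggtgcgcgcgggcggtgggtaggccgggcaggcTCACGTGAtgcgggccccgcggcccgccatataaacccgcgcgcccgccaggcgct
SREBF2: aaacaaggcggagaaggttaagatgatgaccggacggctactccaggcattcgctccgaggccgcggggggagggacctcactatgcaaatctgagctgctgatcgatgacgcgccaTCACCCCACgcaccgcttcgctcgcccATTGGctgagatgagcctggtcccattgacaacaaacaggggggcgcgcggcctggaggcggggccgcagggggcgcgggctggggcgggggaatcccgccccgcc

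The SREBP motifs were rare in these windows. TCACNCCAC was found in SREBF2 alone of the 31 genes, against 1.42% of the 11714 tested genes with a window, and TCACGTGA in INSIG1 alone, against 2.11%. The search took exact matches on both strands, and the motifs did not have to lie apart. CCAAT was held by 22 of the 31 genes (71.0%), against 43.0% of all, and the GC box GGGCGG by 30 (96.8%), against 74.2%. MSMO1 holds 4 matches to CCAAT in the stretch above. By call, 8 of the 9 lower genes with a window held CCAAT and 7 of them at least 2 matches, whereas 14 of the 21 genes that did not pass held it and 8 at least 2. Among all tested genes, 16.1% held at least 2. These are counts of letters, given without a test, and they do not show that a factor was bound.

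Earlier work on these fold changes had singled out 3′ UTRs that hold TTCACAT or TCACATA, or the 8 bases that join them, TTCACATA. The choice of those letters used the same data, so what follows is a description. In GENCODE 44 on GRCh37, 7 of the 35 genes (20%) held such a site, against 22.5% of 13150 tested protein-coding genes. Of these 7 genes, SCD, INSIG1, MSMO1, ABCG1 and STARD4 were lower, and SC5D and FADS2 did not pass. Their median log2 fold change was -0.23, and that of the 28 genes without a site was -0.08, with 7 of them lower. Among all tested protein-coding genes, 28.4% of those with a site were lower, with a median of -0.06, and 10.4% of those without, with a median of 0.02. ACACA, the gene with the largest fall, held none, nor did FASN, FDFT1, IDI1, CYP51A1, FDPS or DHCR7. Among the further 47 genes, 10 held a site, 4 of the 10 lower genes and none of the 7 higher ones. MBTPS2 held the 8-base form at 2 places. Sites are shown for the 4 lower genes of the list with the largest differences among those that hold one, and for MBTPS2, in windows of 30 bases in the sense of the transcript, with the matching bases in capitals. They lie in the last exon at chr10:102121955-102121962 for SCD, chr7:155101869-155101875 for INSIG1, chr4:166263426-166263432 for MSMO1, chr21:43716965-43716971 and chr21:43717100-43717106 for ABCG1, and chrX:21902983-21902990 and chrX:21903391-21903398 for MBTPS2.
SCD: taagagcgaacTTCACATAggaagggatct
INSIG1: atctagtgaggTTCACATtcatactaagtt
MSMO1: taggcctgaagTTCACATtgggtctttaaa
ABCG1, first site: gactgttgtttTTCACATtttcatctttct
ABCG1, last site: ttcagggtaaaTCACATActttgtttagag
MBTPS2, first site: gtaaatatatgTTCACATAaaaaaataact
MBTPS2, last site: tttattgaatgTTCACATActaatggtgca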

How the data were processed

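RNA-seq libraries from si-N6AMT1 and si-CN transfections were compared. The authors trimmed paired-end reads with Trim Galore, quantified transcripts with kallisto v0.46.0 on hg19 and summed the estimates per gene. The values deposited by the authors are therefore estimated counts per gene, in whole numbers and without normalization. kallisto divides reads among similar transcripts, so paralogs, pseudogenes and overlapping genes carry uncertainty, and the strand option used for the stranded libraries is not given in the sources used here.

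GENCODE 44 on GRCh37 gave a symbol to 62149 of the 62438 identifiers. The counts were tested in edgeR v4.0.16 (R v4.3.3) with the quasi-likelihood test, TMM scaling, a minimum count of 10, all 6 libraries and no covariate, at an FDR of 0.05. SE is the size of the log2 fold change over the root of F, and CPM is TMM-scaled. TPM was computed here from reference transcript lengths. The procedure was tested on simulated data with changes larger than those of the listed genes, so the simulation does not show how well changes of their size are found. At 1 CPM a gene has about 19.8 counts in the smallest library. No libraries within a group agreed within sampling noise (chi-square over its degrees of freedom at least 1.36).

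The genes of the list, the further 47 genes, the markers and the motifs were chosen with earlier results of these data known. All members are named. Of the further genes, the 3 with the smallest FDR in each direction are named, and NR1H3 is named beside NR1H2. Alternatives were RLE factors, library totals alone for the sums, no filter, limma-voom (limma v3.58.1), DESeq2 v1.42.0, each library left out in turn, and the replicate number as a block, alone or together with a GC content correction. The GC correction without a block, and the shares at 10 and 50 CPM, were added after the data had been seen.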

Additional observations from a re-analysis of the deposited data

How the results depend on the processing

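Of 488 log2 fold changes of the 35 genes over 14 alternatives, 454 kept their direction and side of the threshold, 17 lost the call, 12 gained it and 5 changed sign. The sign changes were in genes that never passed, and leaving out 1 library at a time gave MVD -0.0838 to 0.0462, NSDHL -0.0680 to 0.00743, INSIG2 -0.0028 to 0.0447 and FADS2 -0.0764 to 0.0218 on the log2 scale. Of the 12 lower genes, 10 were called in every alternative. The exceptions were DHCR7, lost in 9, and STARD4, lost with the replicate block and GC correction (FDR = 0.0773). The count of lower genes ran from 11 to 16 over all alternatives. The count of higher genes, 1, fell to 0 with DESeq2, with DESeq2 on genes at 1 TPM or more, with either GC correction, and ran from 0 to 1 with 1 library left out. The median over the list was -0.102 to -0.0875 with 1 library left out. Of the further 47 genes, 5 were lower and 3 higher with both forms of DESeq2, and 6 to 10 lower and 4 to 8 higher with 1 library left out, fewest without si-N6AMT1 replicate 2. Over all genes, DESeq2 called 1136 lower and 796 higher, and 1240 and 930 at 1 TPM or more. Same-numbered libraries did not deviate together (correlations -0.04, -0.04 and 0.01), and libraries of different numbers gave -0.01 to 0.05. The correlations show no pairing by number but cannot exclude one, because counting noise makes up part of each deviation. With the replicate block, 11 of the 35 genes were lower and 1 was higher, and DHCR7 was lost (FDR = 0.0553). The cause of these changes was not tested. At these depths, genes under a few CPM such as TM7SF2 carry wide intervals.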
